A study of Homo sapiens with 15 samples.

Results

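Chromosome 19 carries the densest collection of zinc finger genes in the human genome. The 94 genes described here are those of the distal end of its long arm, chosen as every gene on chromosome 19 that starts at or after base 51000000 of GRCh38, has a symbol of ZNF followed by a number, and has a mean of at least 10 counts over the libraries. They are 94 of 96 such genes in that stretch and of 58381 genes listed in all. The mean count is the only measured value that chose them. Just inside that limit were ZNF154, with a mean of 32.4 counts, and ZNF671, with 51.5, and just outside were ZNF534 with 5.0 and ZNF578 with 0.4. A minimum of 5 counts would have kept 95 genes and a minimum of 50 counts 93.

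Most zinc finger proteins of this region arose by repeated tandem duplication, and many carry a KRAB domain in front of an array of C2H2 fingers. The fingers bind DNA, often within transposable elements, and the KRAB domain binds the corepressor TRIM28, which brings the histone methyltransferase SETDB1 and the heterochromatin proteins to the site. The bodies of these genes are themselves often covered by the same repressive chromatin.

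The genes were measured by RNA sequencing of bulk cultures in 5 sublines of VCaP, a prostate cancer line, with 3 libraries each and 15 in all. VCaP-T had been kept in medium with charcoal-treated serum and 10 nM testosterone for 7 months and was labelled androgen sensitive. VCaP-CT was derived from it over 10 further months, at 0.1 nM testosterone by the protocol, although the sample labels repeat 10 nM. VCaP-CT-ER came from VCaP-CT kept in 10 µM enzalutamide (ENZ), an antiandrogen, until growth resumed. VCaP-CT-BR came from VCaP-CT kept in the older antiandrogen bicalutamide, and its labels also name a following exposure to ENZ. VCaP-CT-BR-ER came from the bicalutamide line after it grew in ENZ. All sublines were thus kept in the same base medium, and the last 4 share the passage through VCaP-CT. Each was derived once, so treatment, time in culture and the particular derivation cannot be told apart, and in bulk cultures fewer cells of a kind and less RNA per cell cannot be told apart either. The study describes the 3 libraries of a subline as biological replicates, without saying how the cultures were separated, so p-values measure the spread between libraries of 1 derivation each.

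Libraries held 33665716 to 46935279 counted fragments, and each correlated best with its own subline over all genes tested. All 8 luminal prostate markers followed, among them KLK3, HOXB13 and TMPRSS2, were counted in every subline. Their summed level was highest in VCaP-T, at 21450 to 22320 CPM (counts per 1000000 counts of a library), and lowest in VCaP-CT-BR-ER, at 4881 to 5082 CPM. KLK2 made up most of this sum, with a mean of 14430 CPM in VCaP-T and 3361 CPM in VCaP-CT-BR-ER. KRT8 also had its lowest mean in VCaP-CT-BR-ER, and the other markers had theirs in VCaP-CT, VCaP-CT-ER or VCaP-CT-BR. The 9 markers of fibroblasts, leukocytes and endothelium summed to 19.8 to 23.6 CPM in VCaP-T, to 9.06 to 10.8 CPM in VCaP-CT and to at most 2.75 CPM elsewhere, with COL1A2 and CD3E at 0 throughout, and their part in the results was not tested. A count of 3 in a library, taken as the floor, is 0.0639 to 0.0891 CPM, and the floor covers counting error only.

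The 94 genes lie in 3 stretches separated by gaps of more than 500000 bases. The proximal stretch, chr19:51571298-53580269, runs from ZNF175 to ZNF331 and holds 37 of them. The middle stretch, chr19:55476332-56671783, runs from ZNF628 to ZNF835 and holds 16. The distal stretch, chr19:57191500-58481230, runs from ZNF264 to ZNF446 and holds 41. Of the 94 genes, 51 are on the plus strand and 43 on the minus strand. All were above the filter for low counts and were tested, and the lowest count of any of them in a library was 8.

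Levels per length differed widely among the genes. The mean over libraries ran from 0.144 RPKM (CPM per kilobase of counted exon) for ZNF154 to 44.1 RPKM for ZNF615, with a median of 3.65 RPKM. After ZNF615 the highest were ZNF761 at 38.9 RPKM, ZNF614 at 34.9, ZNF649 at 24.7 and ZNF581 at 22.8. The 94 genes together took 0.306% to 0.325% of all counts in VCaP-T, and 0.322% to 0.341% of those in VCaP-CT-BR. Their share was 0.249% to 0.266% in VCaP-CT, 0.268% to 0.277% in the ENZ line made from it and 0.237% to 0.245% in VCaP-CT-BR-ER. These shares of VCaP-T and VCaP-CT-BR did not overlap with those of the other sublines but overlapped with each other. ZNF761 was the largest single part of the share in VCaP-T. Its mean was 594 CPM there and 58.1 to 108.5 CPM in the other sublines.

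Almost every gene of the group differed somewhere among the sublines, as did most genes of the genome. Of the 94 genes, 92 passed the test of any difference with edgeR's quasi-likelihood test and Benjamini-Hochberg adjustment over all 19621 genes tested, against 88.9% of those genes. The differences were mostly modest. The highest subline mean was 1.94 times the lowest in the median gene, at least 2 times in 42 genes, at least 4 times in 2 genes and under 1.5 times in 14 genes. VCaP-T had the lowest mean of the 5 sublines for 61 genes and VCaP-CT-BR the highest for 42. These ranges and counts were not taken over all genes tested, so they do not show whether the group differs from other genes.

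**Figure D1:**
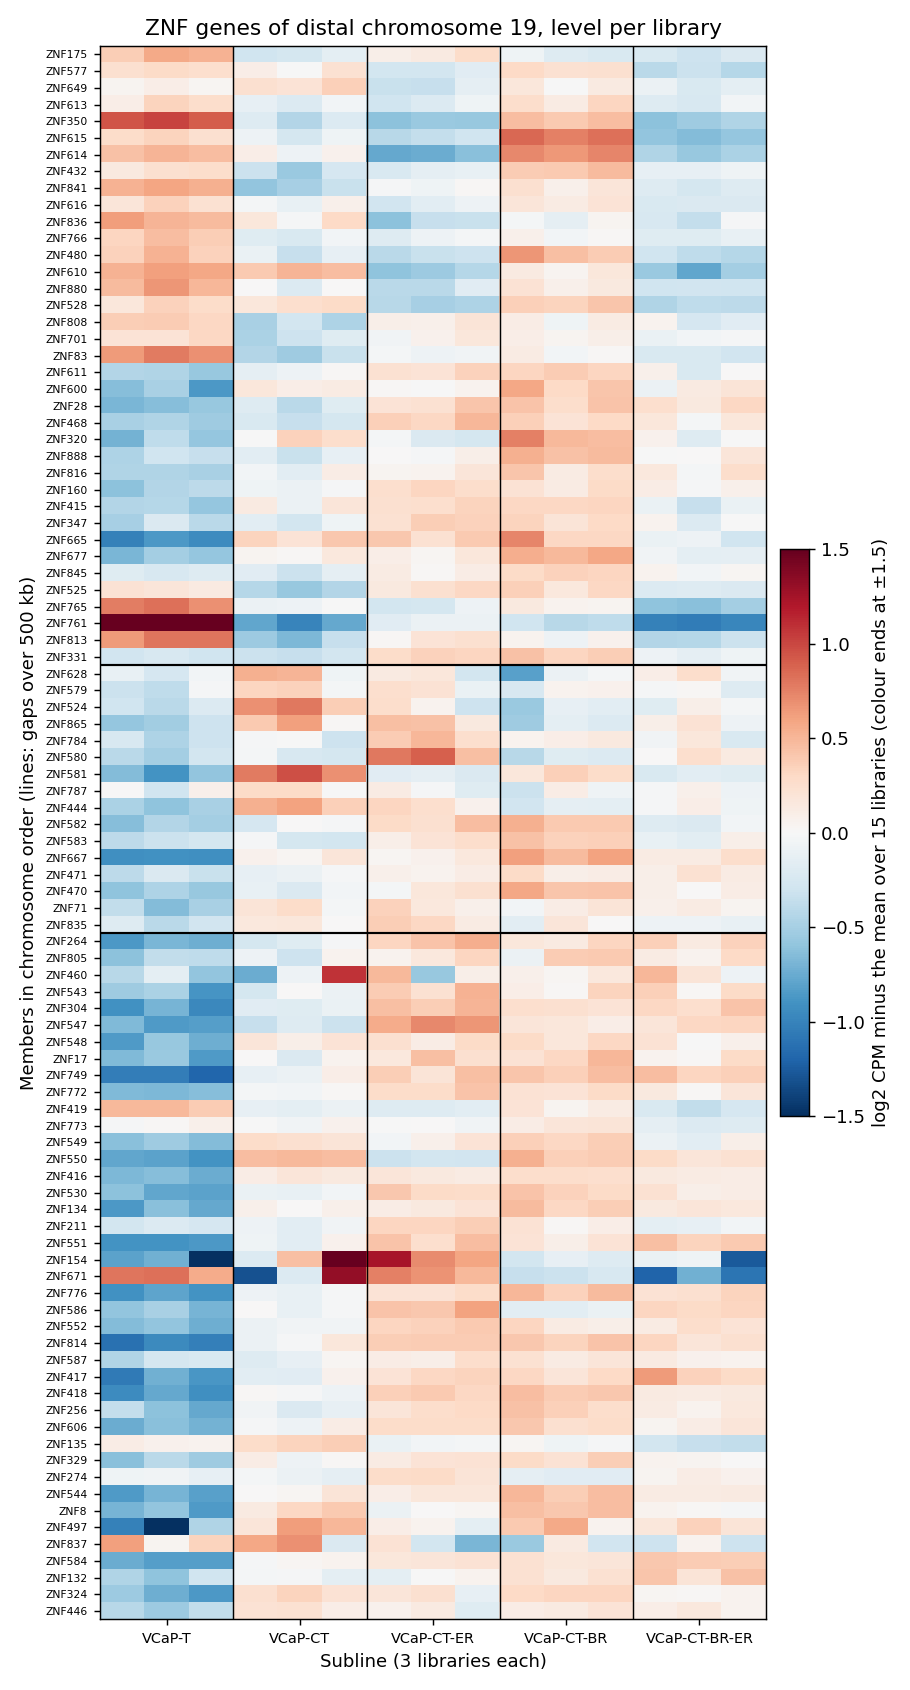
Level of each of the 94 genes (rows, in chromosome order) in each of the 15 libraries (columns), as log2 CPM minus that gene's mean over all libraries; red is higher and blue lower, and black lines mark the sublines and the gaps over 500000 bases. The rows of the distal stretch are mostly blue in VCaP-T, and ZNF761 is far higher in VCaP-T than elsewhere.

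The first step, from VCaP-T to VCaP-CT, moved most of the genes, and the direction followed their place on the chromosome. In VCaP-CT 60 of the 94 genes were higher than in VCaP-T (33.1% of all genes tested) and 21 were lower (32.2% of all genes tested). The median log2 fold change was 0.43 over the 94 genes and 0.03 over all genes tested. Changes of at least 2-fold that passed the test were found in 9 genes upwards (8.6% of all genes) and 5 downwards (12.2% of all genes). In the distal stretch 34 genes were higher and 1, ZNF419, was lower, with a median of 0.65, and in the middle stretch 13 were higher and none lower, with a median of 0.45. In the proximal stretch 13 genes were higher and 20 lower, with a median of −0.27.

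Within the proximal stretch, genes that moved alike stood next to each other. Counting in chromosome order, 10 genes in a row from ZNF613 to ZNF480 were lower in VCaP-CT than in VCaP-T, and 12 in a row from ZNF611 to ZNF677 were higher. The next gene, ZNF845, had a log2 fold change of −0.00, and the 4 after it, ZNF525, ZNF765, ZNF761 and ZNF813, were lower. In the distal stretch 11 in a row from ZNF776 to ZNF329 and 8 in a row from ZNF549 to ZNF154 were higher.

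Genes of other kinds in the same region had a similar median at this step but a wider spread. The 72 other protein-coding genes tested had a median log2 fold change of 0.35, with 37 higher and 18 lower. Their lower and upper quartiles were −0.48 and 0.88, beside −0.04 and 0.78 for the 94 genes. Changes of at least 2-fold that passed the test were found in 14 of them upwards and 14 downwards, beside 9 and 5 of the 94 genes. Between the ends of the distal stretch the median of 13 such genes was 0.76, beside 0.65 for the zinc finger genes there. Between the ends of the middle stretch the median of 10 such genes was 0.38, beside 0.45. In the proximal stretch only 5 such genes were tested, with 2 higher, 2 lower and a median of −0.36, beside −0.27. The 132 ZNF genes tested on the rest of chromosome 19 had a median of −0.07, with 31 higher and 39 lower, and the 207 on other chromosomes a median of 0.15. The part that neighbouring genes have in the result was not tested.

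**Figure D2:**
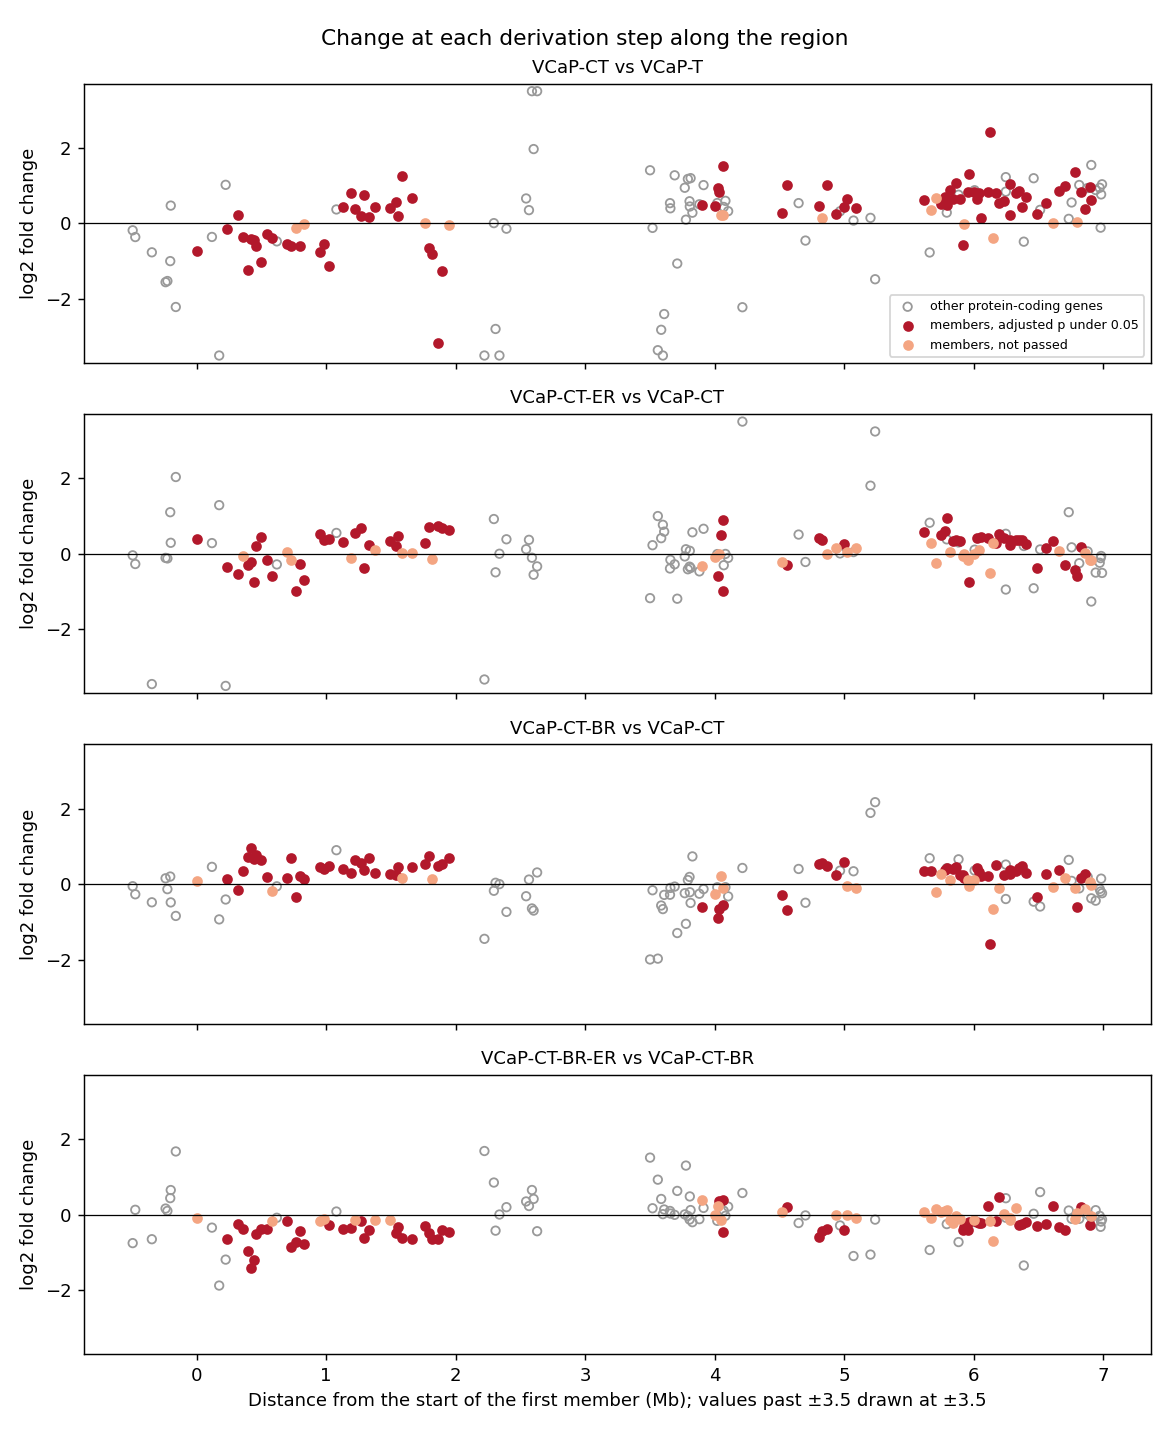
Log2 fold change at each of the 4 steps (panels) against the distance in Mb from the start of the first of the 94 genes; filled points are the 94 genes, dark red where the edgeR adjusted p was under 0.05, and open grey points are other protein-coding genes of the region. In the top panel the points of the distal stretch lie mostly above 0, together with the open points beside them, and in the bottom panel the points of the proximal stretch lie below 0.

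ZNF761 had the widest range of the group. It reached 589, 615 and 579 CPM in VCaP-T and 68.6, 59.3 and 69.1 CPM in VCaP-CT. It stood at 104, 111 and 111 CPM in VCaP-CT-ER, at 95.1, 87.8 and 90.2 CPM in VCaP-CT-BR and at 58.1, 56.9 and 59.4 CPM in VCaP-CT-BR-ER. The VCaP-T libraries were thus far above all others, and the lowest levels, in VCaP-CT and VCaP-CT-BR-ER, lay close together. The log2 fold change from VCaP-T to VCaP-CT was −3.18 ± 0.06 (SE, edgeR adjusted p = 2.36e-20), the largest fall among the 94 genes at any of the 4 steps. From VCaP-CT it rose by 0.72 ± 0.06 in VCaP-CT-ER (edgeR adjusted p = 3.54e-10) and by 0.47 ± 0.06 in VCaP-CT-BR (edgeR adjusted p = 4.94e-07), which share their VCaP-CT controls.

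The nearest neighbours of ZNF761 fell at the same step by less. ZNF813, which lies distal to it, fell from 41.7, 46.9 and 46.7 CPM to 18.4, 16.8 and 21.2 CPM, or by 1.26 ± 0.08 on the log2 scale (edgeR adjusted p = 1.42e-11). ZNF765, on its other side, fell by 0.82 and ZNF525 by 0.65 on the log2 scale. The groups of libraries did not overlap for either gene. These genes are similar copies of each other, and fragments that mapped to several places were not counted, so that their levels are uncertain to that extent.

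In the other direction ZNF581 had the largest change among genes with an average of at least 1 CPM. It stood at 23.6, 19.95 and 24.5 CPM in VCaP-T and at 63.7, 72.5 and 59.5 CPM in VCaP-CT, without overlap. The log2 fold change was 1.52 ± 0.08 (edgeR adjusted p = 3.55e-13). Each later step lowered it: it was at 33.0, 33.8 and 32.0 CPM in VCaP-CT-ER, at 41.8, 47.5 and 45.1 CPM in VCaP-CT-BR and at 31.6, 33.2 and 32.9 CPM in VCaP-CT-BR-ER. ZNF581 shares 23.4% of its counted exon bases with CCDC106 and ZNF580, and fragments there were not assigned.

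ZNF550 and ZNF667 show the rise in the distal and middle stretches. ZNF550 rose from 22.7, 22.4 and 21.0 CPM to 53.7, 54.6 and 53.7 CPM, 2.46-fold by the edgeR fit (adjusted p = 3.38e-14). It fell in VCaP-CT-ER to 31.2, 32.3 and 32.0 CPM and stood at 49.9 to 56.4 CPM in VCaP-CT-BR. ZNF667, a gene known for promoter methylation in carcinomas, rose from 10.1, 10.3 and 10.1 CPM to 20.1, 19.6 and 21.8 CPM and was highest in VCaP-CT-BR at 29.4, 26.7 and 29.3 CPM. ZNF497, at 0.626 to 1.34 CPM in VCaP-T and 2.08 to 2.85 CPM in VCaP-CT, rose by 1.37 on the log2 scale and shares 45.3% of its exon bases with other genes. ZNF749, ZNF814 and ZNF665 rose by 1.06, 1.05 and 1.25 on the log2 scale, and ZNF444, which carries a SCAN domain, by 1.03.

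**Figure D3:**
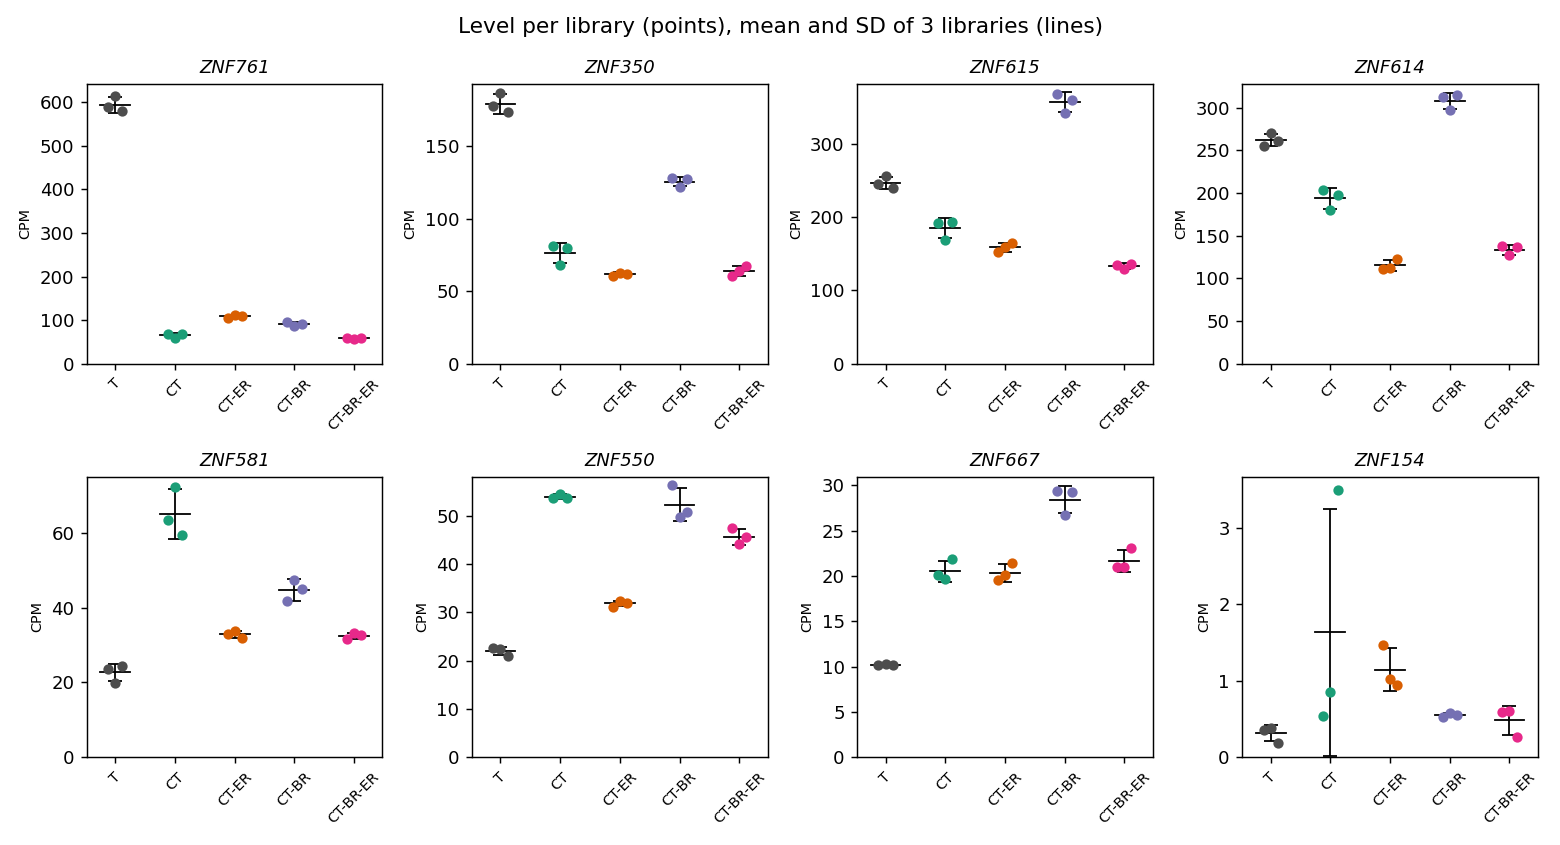
CPM of 8 of the genes in each library (points; linear axes from 0), by subline, with the mean and SD of 3 libraries as black lines. ZNF761 lies between 579 and 615 CPM in VCaP-T and at or below 111 CPM elsewhere; ZNF350, ZNF615 and ZNF614 are high in VCaP-T and VCaP-CT-BR and low in VCaP-CT-BR-ER; the 3 VCaP-CT libraries of ZNF154 lie far apart.

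The second step on the bicalutamide branch raised most of the genes. In VCaP-CT-BR 61 of the 94 genes were higher than in VCaP-CT (26.1% of all genes tested) and 11 were lower (27% of all genes tested), with a median log2 fold change of 0.26, against −0.02 over all genes. In the proximal stretch 31 were higher and 2 lower, with a median of 0.40. In the distal stretch 25 were higher and 3 lower, with a median of 0.25. The middle stretch differed, with 5 higher, 6 lower and a median of −0.10.

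At this step the other protein-coding genes of the region had a median of −0.13, with 12 of 72 higher, while the ZNF genes of the rest of chromosome 19 had a median of 0.37, with 78 of 132 higher and 5 lower. ZNF genes of other chromosomes had a median of 0.07. The 6 genes lowered in the middle stretch lie in its proximal part. They were ZNF524, which binds telomeric DNA, with a log2 fold change of −0.89, ZNF444 with −0.69, ZNF865 with −0.65, ZNF628 with −0.61, ZNF581 with −0.54 and ZNF787 with −0.28. Libraries of VCaP-CT and VCaP-CT-BR overlapped for ZNF628, at 4.86 to 7.34 and 2.88 to 4.98 CPM. They also overlapped for ZNF787, at 23.48 to 28.79 and 18.85 to 25.48 CPM, but not for the rest of the 6. In all 6, VCaP-CT replicate 3 and VCaP-CT-BR replicate 1 were the lowest libraries of their sublines.

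The highest gene of the group per length, ZNF615, led the rise. Its level was 245, 256 and 239 CPM in VCaP-T, 192, 169 and 194 CPM in VCaP-CT and 368, 341 and 360 CPM in VCaP-CT-BR. In the ENZ lines it stood at 152, 159 and 165 CPM in VCaP-CT-ER and at 135, 129 and 136 CPM in VCaP-CT-BR-ER. Every VCaP-CT-BR library was above all others, and every VCaP-CT-BR-ER library below them. The log2 fold change from VCaP-CT to VCaP-CT-BR was 0.95 ± 0.05 (edgeR adjusted p = 9.75e-12), and from there to VCaP-CT-BR-ER it was −1.42 ± 0.06 (edgeR adjusted p = 1.54e-14).

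ZNF615 lies between ZNF350 and ZNF614, all on the minus strand within chr19:51964343-52030240. In all 3 the libraries were lower in VCaP-CT than in VCaP-T, higher in VCaP-CT-BR than in VCaP-CT and lower again in VCaP-CT-BR-ER, without overlap, but ZNF350 was highest in VCaP-T, and both ZNF350 and ZNF614 had their lowest mean in VCaP-CT-ER. ZNF614 stood at 255 to 270 CPM in VCaP-T and 180 to 203 CPM in VCaP-CT. It was at 111 to 122.7 CPM in VCaP-CT-ER, at 297 to 315 CPM in VCaP-CT-BR and at 127 to 138 CPM in VCaP-CT-BR-ER. ZNF350, also known as ZBRK1 and described as a repressor that works with BRCA1, was at 178, 187 and 174 CPM in VCaP-T and at 81.0, 68.2 and 80.1 CPM in VCaP-CT. It then stood at 60.5 to 62.8 CPM in VCaP-CT-ER, at 122 to 128 CPM in VCaP-CT-BR and at 60.6 to 67.6 CPM in VCaP-CT-BR-ER.

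For ZNF614 the VCaP-CT-BR libraries were above all others, and for ZNF350 they were above all but those of VCaP-T. ZNF350 fell by 1.23 ± 0.06 on the log2 scale from VCaP-T to VCaP-CT (edgeR adjusted p = 1.43e-13) and rose by 0.72 ± 0.06 in VCaP-CT-BR (edgeR adjusted p = 2.91e-09). The next gene distally, ZNF432, a protein with a known part in DNA repair, rose by 0.78 ± 0.07 in VCaP-CT-BR, from 33.4, 28.5 and 35.3 CPM to 54.3, 55.0 and 58.1 CPM (edgeR adjusted p = 3.72e-09).

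These neighbours moved in the same direction at each step but the ENZ step from VCaP-CT. There ZNF432 rose, with a log2 fold change of 0.214. ZNF350, ZNF615 and ZNF614 fell at that step, with −0.305, −0.221 and −0.746. The 250 bases before the RefSeq start sites of these neighbours are shown in the direction of transcription. Those of ZNF761 and ZNF547, the genes with the largest fall in VCaP-CT and the largest rise in VCaP-CT-ER, are shown with them. Sequences are from RefSeq on GRCh38.p14, and for ZNF432 the most upstream of 3 starts is given. Capitals mark matches, on either strand, to 5 short words: AAGATGG, a core of the YY1 motif, GGGCGG, the GC box bound by SP and KLF factors, CCGGAAGT, an ETS motif, CCAAT, bound by NF-Y, and TATAAA. ZNF350 is at chr19:51986841-51987090 (minus strand), ZNF615 at chr19:52008212-52008461 (minus), ZNF614 at chr19:52028380-52028629 (minus), ZNF432 at chr19:52048839-52049088 (minus), ZNF761 at chr19:53431734-53431983 (plus) and ZNF547 at chr19:57363301-57363550 (plus).
ZNF350: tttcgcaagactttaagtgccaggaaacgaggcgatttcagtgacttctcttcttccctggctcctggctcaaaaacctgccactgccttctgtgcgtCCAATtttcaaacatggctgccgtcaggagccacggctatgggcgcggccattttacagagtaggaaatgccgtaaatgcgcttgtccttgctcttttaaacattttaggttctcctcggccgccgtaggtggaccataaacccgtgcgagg
ZNF615: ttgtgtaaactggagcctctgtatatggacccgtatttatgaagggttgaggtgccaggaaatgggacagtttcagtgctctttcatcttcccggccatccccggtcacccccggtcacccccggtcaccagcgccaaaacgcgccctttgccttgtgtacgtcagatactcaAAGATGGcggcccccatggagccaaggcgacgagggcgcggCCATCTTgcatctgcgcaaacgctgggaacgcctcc
ZNF614: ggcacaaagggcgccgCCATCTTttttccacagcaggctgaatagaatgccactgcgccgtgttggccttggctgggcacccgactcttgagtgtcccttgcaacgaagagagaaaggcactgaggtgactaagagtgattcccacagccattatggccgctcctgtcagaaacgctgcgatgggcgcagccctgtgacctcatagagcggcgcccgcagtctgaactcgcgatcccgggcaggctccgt
ZNF432: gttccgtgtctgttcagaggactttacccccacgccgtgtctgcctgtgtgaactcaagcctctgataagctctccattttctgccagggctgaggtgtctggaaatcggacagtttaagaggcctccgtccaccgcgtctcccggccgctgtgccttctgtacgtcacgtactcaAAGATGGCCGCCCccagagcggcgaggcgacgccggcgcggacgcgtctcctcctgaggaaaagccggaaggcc
ZNF761: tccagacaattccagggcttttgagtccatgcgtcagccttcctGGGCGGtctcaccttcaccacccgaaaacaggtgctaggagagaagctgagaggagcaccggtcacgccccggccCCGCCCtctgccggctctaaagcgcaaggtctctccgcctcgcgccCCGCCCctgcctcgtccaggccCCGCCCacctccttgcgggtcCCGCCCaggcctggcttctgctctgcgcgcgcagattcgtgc
ZNF547: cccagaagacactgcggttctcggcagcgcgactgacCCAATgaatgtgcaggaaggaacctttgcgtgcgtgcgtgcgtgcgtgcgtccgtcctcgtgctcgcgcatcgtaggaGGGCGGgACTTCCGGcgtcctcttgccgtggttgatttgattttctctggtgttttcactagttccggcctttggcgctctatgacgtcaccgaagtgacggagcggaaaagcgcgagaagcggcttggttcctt

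The YY1 word stands in the windows of ZNF615, ZNF614 and ZNF432, in ZNF615 once on each strand, and not in that of ZNF350. In ZNF432 it runs into a GC box. The windows of the other ZNF432 starts, not shown, lack the YY1 word, and the one furthest downstream holds a GC box. The window of ZNF761 holds 5 GC boxes, and that of ZNF547 a GC box, an ETS word and a CCAAT word. A match is a description of these letters only and shows no binding.

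Promoters were found for 82 of the 94 genes, 101 in all, and were set beside all 35116 promoters of the RefSeq table. The median GC content of the window was 61.6% for the genes and 58% for all promoters, and the median number of CpG was 18 and 11. The YY1 word was present in 7.92% of the promoters of these genes and 3.7% of all promoters, the GC box in 63.4% and 42.6%, CCAAT in 41.6% and 32%, and TATAAA in 1.98% and 10.7%. In the promoters of ZNF genes on the rest of chromosome 19 the shares were 4.43% for the YY1 word, 62.7% for the GC box, 50.6% for CCAAT and 3.16% for TATAAA. In 2 promoters of the 94 genes matches to a pair of words overlapped. The ETS word was in 19.8% of the promoters of these genes, 3.42% of all promoters, 6.47% of those of other protein-coding genes of the region and 5.06% of those of ZNF genes on the rest of chromosome 19.

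The words were spread unevenly over the stretches. The ETS word was found before 17 of 38 genes in the distal stretch, 2 of 30 in the proximal and 1 of 14 in the middle stretch. The YY1 word was found before 5 of 30 genes in the proximal stretch, ZNF613, ZNF614, ZNF615, ZNF432 and ZNF701, before ZNF580 and ZNF582 in the middle stretch and before none of 38 in the distal stretch.

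The ENZ step from VCaP-CT raised more genes than it lowered, by small amounts. In VCaP-CT-ER 45 of the 94 genes were higher than in VCaP-CT (29.6% of all genes tested) and 19 lower (31.2% of all genes tested), with a median log2 fold change of 0.16, against −0.02 over all genes. No gene of the group passed the test with a 2-fold change by edgeR or by DESeq2, against 7.96% of all genes upwards and 9.58% downwards by edgeR. The other protein-coding genes of the region had a median of −0.00, and the ZNF genes of the rest of chromosome 19 one of 0.25.

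ZNF547, of the distal stretch, rose most. It stood at 4.35, 4.84 and 4.42 CPM in VCaP-CT and at 8.12, 9.13 and 8.77 CPM in VCaP-CT-ER, without overlap. The log2 fold change was 0.93 ± 0.09 (edgeR adjusted p = 1.04e-08). ZNF580 rose by 0.90, from 10.1, 8.74 and 8.61 CPM to 17.8, 19.2 and 14.1 CPM. Its neighbour ZNF581 fell by 0.99 at the same step, ZNF610 by 0.98 and ZNF550 by 0.76 on the log2 scale.

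The ENZ step on the bicalutamide branch went the other way. It shares the VCaP-CT-BR libraries with the rise from VCaP-CT to VCaP-CT-BR, so these results are not independent. In VCaP-CT-BR-ER 51 of the 94 genes were lower than in VCaP-CT-BR (21.7% of all genes tested) and 7 were higher (21.2% of all genes tested). The median log2 fold change was −0.21 over the 94 genes and 0.00 over all genes. In the proximal stretch 30 of 37 genes were lower and none higher, with a median of −0.41, and the log2 fold changes ran from −1.42 to −0.09. In the distal stretch 16 were lower and 4 higher, and in the middle stretch 5 were lower and 3 higher.

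The genes with a fall of at least 2-fold here were ZNF615 and ZNF614 (3.77% of all genes tested fell that far). ZNF614 fell by 1.21 ± 0.05 on the log2 scale (edgeR adjusted p = 1.74e-13) and ZNF350 by 0.97 ± 0.06 (edgeR adjusted p = 3.43e-11). Among the genes that passed the test, the largest rises were those of ZNF586, by 0.45, ZNF580, by 0.40, and ZNF865, by 0.36 on the log2 scale. The rise of ZNF865, from 6.22, 8.11 and 7.78 CPM to 9.55, 10.4 and 8.49 CPM, had an edgeR adjusted p of 0.0351, and leaving out VCaP-CT-BR replicate 1 ended the call (adjusted p = 0.152). The other protein-coding genes of the region had a median of 0.00, and the ZNF genes of the rest of chromosome 19 one of −0.22, with 64 of 132 lower and 9 higher.

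**Figure D4:**
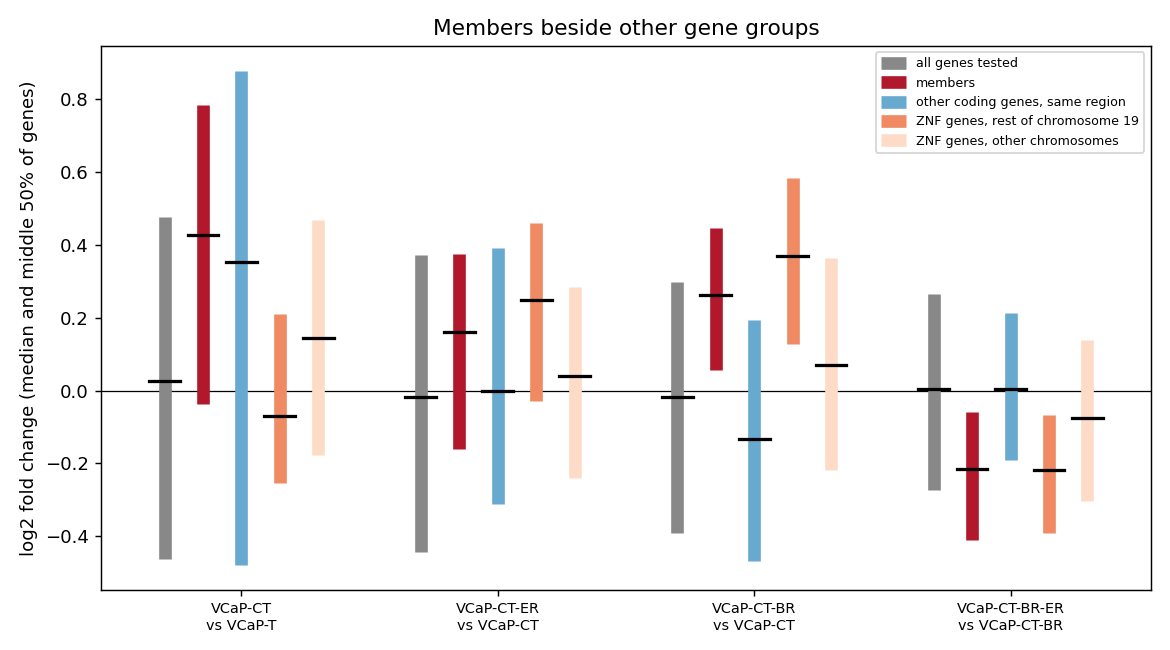
Median (black line) and middle 50% (coloured bar) of the log2 fold changes in 5 groups of genes at each of the 4 steps: all genes tested, the 94 genes, other protein-coding genes of the same region, ZNF genes of the rest of chromosome 19 and ZNF genes of other chromosomes. At the first step the median of the 94 genes (0.43) lies beside that of the other genes of their region (0.35). The bar of those other genes is wider there. At the last step the median of the 94 genes (−0.21) lies beside that of the ZNF genes of the rest of chromosome 19 (−0.22).

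The contrast of these ENZ steps was itself tested, gene by gene, as the ENZ change on the bicalutamide branch minus the ENZ change from VCaP-CT, which share no libraries. It passed in 63 of the 94 genes (49.7% of all genes tested), in 56 as a lower value on the bicalutamide branch (24.5% of all genes tested) and in 7 as a higher one (25.2% of all genes tested). The contrast also uses the VCaP-CT and VCaP-CT-BR libraries that gave the rise in VCaP-CT-BR, and is not independent of it. The median difference was −0.39 on the log2 scale over the 94 genes and 0.01 over all genes. It was −0.64 in the proximal stretch, where 29 of 37 genes were lower, −0.34 in the distal stretch and −0.12 in the middle stretch. Over the ZNF genes of the rest of chromosome 19 it was −0.44, with 81 of 132 lower, and over the other protein-coding genes of the region 0.00.

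Of the 94 genes, 23 were higher in the step from VCaP-CT and lower in the step from VCaP-CT-BR, 1 was the reverse, 14 were lower in both and 5 higher in both. Over all genes tested the shares were 5.08%, 5.12%, 10.5% and 10.2%, in the same order. A further 36 of the 94 passed the test in exactly 1 of these steps (42.1% of all genes tested) and 15 in neither (27.1%). ZNF331, an imprinted gene at the distal end of the proximal stretch, is of the first kind. It stood at 74.4, 73.0 and 76.8 CPM in VCaP-CT, at 112, 118 and 116 CPM in VCaP-CT-ER, at 126, 116 and 120 CPM in VCaP-CT-BR and at 88.4, 85.0 and 88.6 CPM in VCaP-CT-BR-ER. The ENZ step was thus a rise on one branch and a fall on the other, without overlap of libraries in either, and the difference was −1.09 ± 0.07 (SE, edgeR adjusted p = 1.82e-11).

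**Figure D5:**
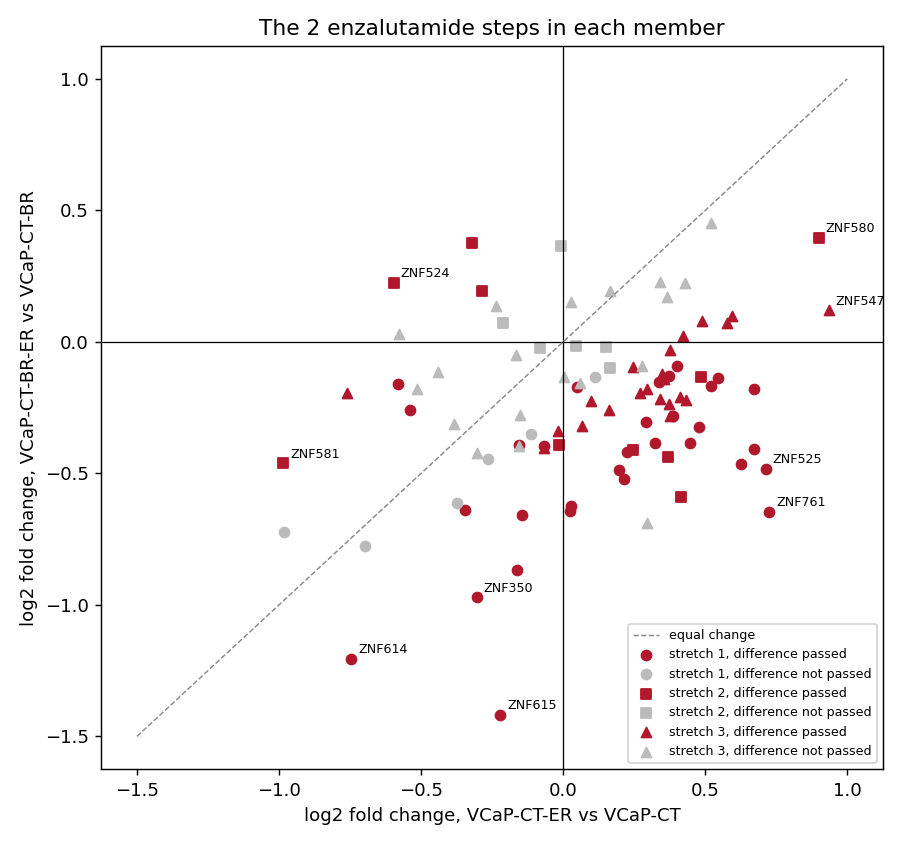
Log2 fold change of each of the 94 genes in the ENZ step from VCaP-CT (horizontal axis) and in that from VCaP-CT-BR (vertical axis); circles are the proximal stretch (1), squares the middle (2) and triangles the distal (3), red where the difference between the steps had an edgeR adjusted p under 0.05, and the dashed line marks equal change. Most red points lie below the line, 56 of 63, and the genes furthest down are ZNF615 and ZNF614.

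The later sublines had higher levels in the distal stretch. Against VCaP-T, 63 of the 94 genes were higher in VCaP-CT-ER (34.3% of all genes tested) and 24 lower (34.7% of all). In VCaP-CT-BR 60 were higher (35.9% of all) and 15 lower (35.3% of all), and in VCaP-CT-BR-ER 58 were higher (34.9% of all) and 27 lower (35.3% of all). The medians over the 94 genes were 0.59, 0.64 and 0.50 on the log2 scale, and these comparisons share their VCaP-T libraries. In the distal stretch the medians, in the same order, were 0.93, 0.95 and 0.81. Other protein-coding genes between the ends of that stretch had medians of 0.72, 0.73 and 0.75. The proximal stretch did not share the rise, with medians of −0.33, 0.10 and −0.39. Of its 37 genes, 14, 17 and 14 were higher and 22, 12 and 23 lower.

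Relative to each gene's own mean over the libraries, the median gene of the group lay 0.38 to 0.45 below it (log2) in the VCaP-T libraries and from 0.08 below it to 0.00 in the VCaP-CT libraries. It lay 0.13 to 0.17 above it in VCaP-CT-ER, 0.18 to 0.26 above it in VCaP-CT-BR and from 0.01 below to 0.04 above it in VCaP-CT-BR-ER. Different sublines did not overlap in this value, other than VCaP-CT with VCaP-CT-BR-ER.

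ZNF154 and ZNF671, neighbours of the distal stretch known for promoter methylation in carcinomas, were the lowest genes of the group and the least steady. ZNF154 was at 0.358, 0.381 and 0.188 CPM in VCaP-T and at 0.543, 0.854 and 3.49 CPM in VCaP-CT, and ZNF671 at 1.95, 1.99 and 1.65 CPM and at 0.453, 0.968 and 2.79 CPM. VCaP-CT replicate 3 was the highest of the 3 for both genes and also for ZNF460, at 4.53 CPM beside 1.27 and 2.02 CPM. The fall of ZNF154 from VCaP-CT to VCaP-CT-BR by 1.59 on the log2 scale (edgeR adjusted p = 0.00903) was the only fall of at least 2-fold in the group at that step (7.01% of all genes tested), and without VCaP-CT replicate 3 it was 0.37 with an edgeR adjusted p of 0.403.

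The rise of ZNF154 from VCaP-T to VCaP-CT, 2.43 ± 0.54 on the log2 scale (edgeR adjusted p = 0.000542), was 1.19 without that library (adjusted p = 0.0115). For ZNF671 the same step gave −0.38 with all libraries (edgeR adjusted p = 0.329) and −1.38 without it (adjusted p = 4.31e-05).

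The list of genes known for promoter methylation in carcinomas holds 8 members of the group. In VCaP-CT 6 of the 8 were higher than in VCaP-T and none was lower, with a median of 0.41 (33.1% of all genes tested were higher and 32.2% lower). In VCaP-CT-BR 6 were higher than in VCaP-CT and 1, ZNF154, was lower (26.1% and 27% of all genes). In VCaP-CT-BR-ER 4 were lower than in VCaP-CT-BR and none higher (21.7% and 21.2% of all genes). Of the 94 genes themselves, 63.8% were higher in VCaP-CT, with a median of 0.43. A further comparison, VCaP-CT-BR against VCaP-CT, had 64.9% of the 94 higher, and VCaP-CT-BR-ER against VCaP-CT-BR had 54.3% lower. The list thus moved much as the group it was taken from. ZNF582 rose from 4.08 ± 0.28 CPM (SD, n = 3) in VCaP-T to 7.99 ± 0.44 CPM in VCaP-CT-BR, and ZNF677 from 33.6 ± 2.0 to 73.3 ± 2.3 CPM. ZNF132 and ZNF471 rose by 0.38 and 0.24 on the log2 scale in VCaP-CT. Methylation was not measured in these libraries.

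Of the 6 genes with a known role of their own, ZNF304, which has been tied to silencing of the INK4-ARF locus, rose from 14.1 ± 1.4 CPM (SD, n = 3) in VCaP-T to 22.9 ± 0.70 CPM in VCaP-CT and 34.6 ± 1.6 CPM in VCaP-CT-ER. ZNF808, needed for the human pancreas to form, fell from 15.1 ± 0.38 to 8.90 ± 0.74 CPM in VCaP-CT and stood at 12.8 ± 0.55 CPM in VCaP-CT-ER. ZNF444 rose from 25.2 ± 1.2 to 51.3 ± 4.5 CPM in VCaP-CT and was at 31.8 ± 1.9 CPM in VCaP-CT-BR.

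ZNF274, which binds the 3′ ends of other zinc finger genes and recruits SETDB1 there, was among the steadiest of the group. It stood at 32.1 to 33.7 CPM in VCaP-T, at 31.9 to 34.2 CPM in VCaP-CT and at 40.2 to 42.6 CPM in VCaP-CT-ER. It was at 31.1 to 32.0 CPM in VCaP-CT-BR and at 36.1 to 37.7 CPM in VCaP-CT-BR-ER. It rose by 0.34 and 0.23 on the log2 scale in the ENZ steps, and the highest mean was 1.33 times the lowest. Narrower still were ZNF787, at 1.21 times, and ZNF773, at 1.27 times.

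The corepressor genes that KRAB proteins work through were followed as a list of 24, of which 22 passed the filter. DAXX and EHMT2 were listed at or near 0 in all libraries. Fragments that mapped to several places were not counted, and whether this lowered the counts of DAXX and EHMT2 was not tested. In VCaP-CT 13 of the 22 were higher than in VCaP-T and 2, CBX3 and EHMT1, were lower, with a median log2 fold change of 0.29 (33.1% of all genes tested were higher and 32.2% lower). TRIM28, which lies in the same region of chromosome 19 beyond the distal stretch, rose from 337 ± 18 CPM (SD, n = 3) to 648 ± 58 CPM, a log2 fold change of 0.94 ± 0.07 (SE, edgeR adjusted p = 3.38e-10), and stood between 549 and 593 CPM on average in the later sublines. SETDB1 rose by 0.44 and ATRX by 0.78 on the log2 scale.

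The later steps moved this list in no single direction, with 7 genes higher and 6 lower in VCaP-CT-ER, 9 higher and 5 lower in VCaP-CT-BR, and 9 higher and 7 lower in VCaP-CT-BR-ER, each against the subline it came from. Over all genes tested, 29.6% were higher and 31.2% lower at the first of these steps, 26.1% and 27% at the second, and 21.2% and 21.7% at the third. ATF7IP, the partner of SETDB1, rose at each of the 4 steps, from 55.3 ± 0.89 CPM in VCaP-T to 109 ± 5.9 CPM in VCaP-CT-BR-ER. TASOR, a subunit of the HUSH silencing complex, rose by 0.37 in VCaP-CT-BR and fell by 0.32 in VCaP-CT-BR-ER on the log2 scale.

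PEG3, the best known imprinted gene of the region and itself a zinc finger gene, lies between the middle and the distal stretch. It was at 3.03, 4.85 and 3.65 CPM in VCaP-T and at 1.21, 1.37 and 1.54 CPM in VCaP-CT. It was at 13.2, 10.97 and 14.9 CPM in VCaP-CT-ER, 5.57, 6.20 and 6.79 CPM in VCaP-CT-BR and 4.52, 6.13 and 6.32 CPM in VCaP-CT-BR-ER. From VCaP-CT it rose by 3.24 on the log2 scale in VCaP-CT-ER and by 2.17 in VCaP-CT-BR, while ZNF331 rose by 0.63 and 0.69 at these steps.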

How the data were processed

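RNA of 5 VCaP sublines, 3 libraries each, was sequenced on an Illumina instrument. The authors aligned paired reads to GRCh38 with STAR 2.5.4b and deposited raw counts per gene from featureCounts 1.6.2 on GENCODE release 28, run on fragments without strand, multi-mapping or multi-overlapping reads, per the file headers. Reads of overlapping or near-identical genes were therefore lost, and overlapping antisense genes cannot be told apart. Of the 94 genes, 53 share exon bases with another gene, 10 of them over 20%. Symbols came from GENCODE release 44 and matched 98.9% of the identifiers.

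The members, lists and tests were chosen with earlier results of these data known. CPM used TMM-scaled library sizes (factors 0.984 to 1.029), and RPKM the counted exon length. Differences were tested with edgeR 4.0.16 in R 4.3.3 on all 15 libraries and 19621 genes (filterByExpr, minimum count 10), with a term per subline, the quasi-likelihood F test and a Benjamini-Hochberg threshold of 0.05. Only rows of the 94 genes and of the lists are printed. The biological coefficient of variation was 0.061. Library totals were 33665716 to 46935279 counts, and no pair of replicates agreed within sampling noise (chi-square per gene 3.01 to 17.7). Tested on simulated data for VCaP-CT-BR vs VCaP-CT with 18996 genes, the fit called 23, 35, 44 and 48 of 50 genes changed 1.3, 1.5, 2 and 4-fold, 8 unchanged genes, and 0 in a contrast without change. The simulation gave every gene the same dispersion and changed few genes, whereas 53.2% of genes tested passed at this step in the data. These rates therefore do not give the sensitivity of the tests on the data.

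Genes named with values were the 12 with the widest range of subline means, the 3 with the largest rise and fall at each step where the average log2 CPM was 0 or more, the 5 highest by RPKM, the 3 narrowest, those at the count limit and those of the lists. Their neighbours in runs, ZNF460, ZNF613, ZNF701, ZNF845, ZNF419, ZNF765 and ZNF628, and the 6 promoters shown were chosen after their values were seen. Motif words were searched on both strands of the 250 bases before each RefSeq start. Alternatives were DESeq2 1.42.0 and its size factors, 75th percentile scaling, other filters, protein-coding genes alone, the compared sublines alone, a replicate block and leaving out each library. Protein features were not analysed here. Some marker genes and a motif word of the lists are not reported here.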

Additional observations from a re-analysis of the deposited data

Results flagged for a closer look

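The results below stand out because the change with ENZ differed between the branch from VCaP-CT and that from VCaP-CT-BR by a test of the difference itself. The difference passed edgeR's quasi-likelihood test in 63 of the 94 genes and in 49.7% of all genes tested. Those of the named genes that passed are given here, and some of them were named for large changes at these same steps. Values are the log2 change on the bicalutamide branch minus that from VCaP-CT.

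The difference was lowest for ZNF761 at −1.37, followed by ZNF615 and ZNF525 at −1.20 each, ZNF331 at −1.09, ZNF813 at −1.08 and ZNF582 at −1.002. It was −0.81 for ZNF547, −0.73 for ZNF432, −0.69 for ZNF808, −0.67 for ZNF350 and ZNF677 and −0.65 for ZNF665. It was −0.50 for ZNF814, ZNF580 and ZNF304, −0.46 for ZNF614, −0.41 for ZNF749, −0.38 for ZNF667 and −0.32 for ZNF773. It was above 0 for ZNF524 at 0.82, ZNF550 at 0.56, ZNF581 at 0.53, ZNF444 at 0.48 and ZNF649 at 0.28. Groups of 3 libraries are too small for the test of single outlying libraries.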

How the results depend on the processing

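The 24 gene changes named by step were recomputed under up to 23 alternatives. Of these 552 values, 548 kept their direction and side of the threshold, none reversed, and 4 no longer passed. These 4 were all the rise of ZNF865 in VCaP-CT-BR-ER, with edgeR adjusted p of 0.0531, 0.152, 0.0722 and 0.125 without VCaP-CT replicate 1, VCaP-CT-BR replicate 1, VCaP-CT-BR-ER replicate 1 and VCaP-CT-BR-ER replicate 2. Of 414 values of counts and medians, 2 moved by more than 1.5 times or the spread between libraries. The number of genes higher in VCaP-CT-BR-ER than in VCaP-CT-BR, 7, was between 4 and 7 when a library was left out, with 4 without VCaP-CT-BR-ER replicate 1. The median of VCaP-CT-BR-ER against VCaP-T, 0.50, was 0.44 with at least 10 counts in every library. With a library left out, 54 to 60 genes were higher and 20 to 22 lower in VCaP-CT against VCaP-T, and 47 to 61 were higher in VCaP-CT-BR against VCaP-CT. Other scalings moved the median of all genes by less than 0.1. On average same-numbered libraries deviated no more alike than others (mean correlation −0.009, against 0.004 between unlike numbers, over 11683 genes). Of 15 libraries, 6 were closest to their own number. By pair of sublines the mean for same numbers ran from −0.332, for VCaP-T with VCaP-CT, to 0.337, for VCaP-CT with VCaP-CT-ER. Opposite signs cancel in the average, so it cannot decide whether the numbers pair the libraries. With the replicate block 58 genes were higher and 21 lower in VCaP-CT, 44 higher and 18 lower in VCaP-CT-ER, 60 higher and 10 lower in VCaP-CT-BR, 7 higher and 51 lower in VCaP-CT-BR-ER, and 7 higher and 56 lower in the contrast of the ENZ steps. Genes under about 1 CPM, such as ZNF154, are limited by depth.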
